A study of Homo sapiens with 2 samples.

Results

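The genes described here encode the machinery of mitosis: the kinases that drive entry into division, the kinetochore, the mitotic kinesins and spindle proteins, condensin and the proteins of cytokinesis. They were taken as 60 named genes, and each was represented by its brightest probe set, the one with the highest mean level over both arrays. Of the 60 genes, 59 were measured, out of 18132 genes represented on the arrays. The 59 had 152 probe sets that name 1 gene, and all 59 lay past a floor on signal (log2 5.22, the 40th percentile of mean level over every probe set), as did 12652 genes in all. The gene that could not be measured alone was PTTG1, which encodes securin, the inhibitor of separase. Its probe set is shared with the pseudogene PTTG3P and read 12.40 in both arrays (log2 difference 0.0005).

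Both samples were H1299 cells, a human lung carcinoma cell line of the non-small cell type with no p53, transiently transfected with plasmid by a lipid reagent. One had received EGR1 in a pcDNA plasmid and the other the empty pcDNA3.1 vector, with collection 48 hours later. EGR1, a zinc-finger transcription factor of the immediate-early class, was the subject: the study asked which genes it regulates in these cells, with apoptosis and metastasis in view. The share of cells that took up the plasmid is not given. Each group held 1 array, so no difference below has a replicate error or a test, and each describes these 2 arrays.

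The transfected gene had 6 probe sets, of which 2 were 13.3-fold and 6.76-fold higher in the EGR1 array and 4 were lower, with log2 differences from -0.39 to -0.20. Which of them lie within the plasmid's insert was not established here. The brightest EGR1 probe set was among the 4, at 10.12 in the EGR1 array and 10.51 in the empty-vector array. The brightest-probe-set rule used for the mitotic genes would thus give EGR1 as 1.31-fold lower. Levels are deposited log2 values made with RMA, which puts arrays on a common scale and gives 1 value per probe set. Differences were taken between arrays within a probe set, and a level set beside that of another gene describes probe signal and not the amount of RNA. Of the epithelial markers, the keratins KRT8, KRT18 and KRT19 were past the floor, and EPCAM and CDH1 were not. KRT8 read 9.97 in the EGR1 array and 7.97 in the empty-vector array, 3.99-fold higher, and the log2 differences of its 8 probe sets ran from 1.32 to 2.00. KRT18 read 12.47 in the EGR1 array and 10.70 in the empty-vector array, 3.39-fold higher. Both keratin differences were larger than that of any mitotic gene, and their part in the results below was not tested. The mesenchymal filament gene VIM read 13.66 in the EGR1 array and 13.73 in the empty-vector array. The other mesenchymal marker, CDH2, read 8.49 with EGR1 against 8.41 with empty vector. The lung marker NKX2-1 was dim, at 6.38 in the EGR1 array and 6.08 in the empty-vector array. SFTPC, another lung marker, read 6.27 with EGR1 against 6.41 with empty vector, and none of the 4 lung markers exceeded 6.41 in either array. The leukocyte gene PTPRC, at 2.80 in the EGR1 array and 2.95 in the empty-vector array, lay below that floor, and of the other leukocyte, endothelial and fibroblast markers measured none exceeded 6.21 in either array.

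Mitosis is driven by cyclin B bound to the kinase CDK1, with Aurora and Polo-like kinases acting at centrosomes, kinetochores and the midzone. Kinetochores join each chromosome to spindle microtubules, and the spindle checkpoint holds back the anaphase-promoting complex (APC/C) until all are attached. Condensin compacts the chromosomes, and a contractile ring built on anillin then divides the cell. Many of these genes are transcribed in the G2 and M phases of the cycle through promoters with CCAAT boxes, bound by NF-Y, and a cell cycle genes homology region (CHR), bound by the MuvB core of the DREAM, B-MYB and FOXM1 complexes. In bulk RNA, fewer cells in G2 or mitosis and less RNA per cell cannot be told apart.

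The mitotic genes were lower in the EGR1 array by small amounts and nearly all in the same direction. Of the 59 measured genes, 55 had a log2 difference (EGR1 minus empty vector) under 0 and 4 were above it. The genes were chosen with earlier results of these data known. Among all genes past the floor 52.8% were under 0 and 44.6% above it. The median difference over the 59 was -0.16, which is 1.11-fold lower, and the quartiles were -0.22 and -0.08. Over the 12652 genes past the floor the median was -0.02 and the quartiles were -0.12 and 0.10, so the upper quartile of the mitotic genes lay under the median of all genes. None of the 59 reached 2-fold in either direction, against 0.356% of genes past the floor. At or beyond 1.2-fold, 7 of the 59 (11.9%) were lower and 0 were higher. The share of all genes past the floor was 5.85% lower and 7.06% higher at that fold. A threshold of 1.1-fold, chosen after the values were seen, was passed by 38 of 59 (64.4%) toward lower levels and by 0 toward higher levels, against 21.1% and 19.6% of all genes.

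**Figure D1:**
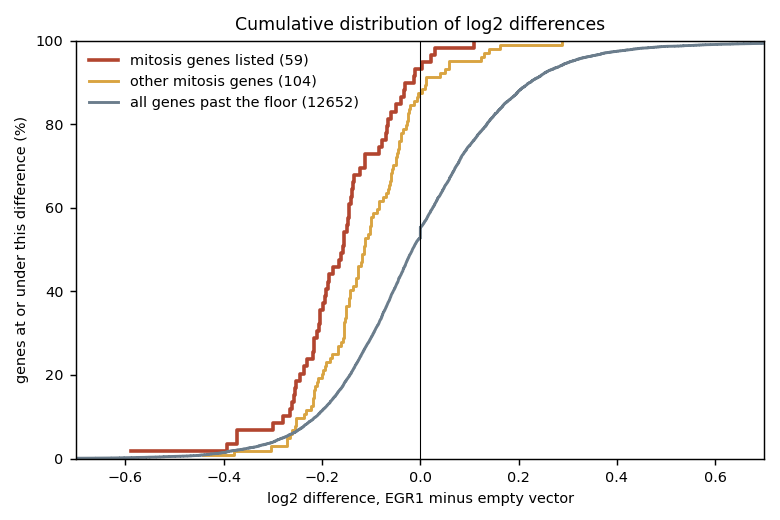
Share of genes (vertical axis, percent) at or under each log2 difference, EGR1 minus empty vector (horizontal axis), for the 59 mitotic genes, 104 other mitosis genes and the 12652 genes past the floor, from 1 array per group. The mitotic genes' curve lies to the left, with a median of -0.16, and the other mitosis genes' curve, with a median of -0.11, lies between it and that of all genes at -0.02.

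Repeat measurements existed only where a gene had several probe sets. The pooled SD of the difference between them was 0.15 over 7114 genes and 0.14 over the 36 mitotic genes that had at least 2 past the floor. The median difference of the 59, -0.16, is about as large as this probe-level SD, so most single members are not set apart from probe-level error. Among the 135 probe sets of mitotic genes past the floor, 118 were under 0, 16 above 0 and 1 identical in both arrays. The matching shares over the probe sets of all genes are not given here. By brightest probe set, 52.8% of all genes past the floor were under 0. Probe sets of 1 gene are not independent repeats. In 28 of the 36 genes with several such probe sets every one was under 0, in 1 (CDC25B) every one was above 0, and in 7 they lay on both sides of 0 or touched it. Beside the deposited scale, 2 other scalings were tried, a lowess correction of the difference on mean level and quantile normalization of the 2 arrays, and genes that they turned across 0 are named below. The second brightest probe set, which the choice of the brightest leaves out, was under 0 in 32 of the 36, with a median of -0.19. It comes from the same 2 labelled samples. For the counts of 28 and 32 of the 36, the matching shares over all genes are not given here.

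**Figure D2:**
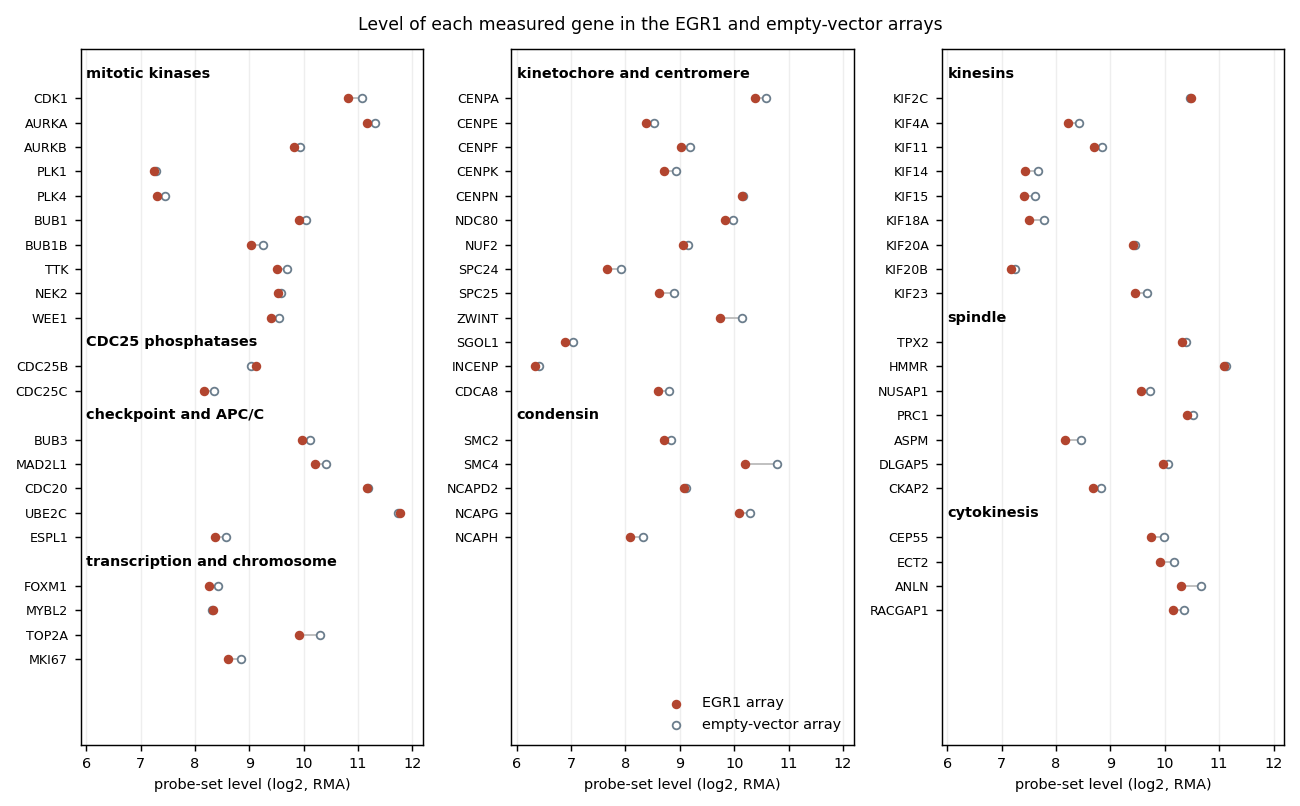
Level of each of the 59 genes (log2, RMA) in the EGR1 array (filled) and the empty-vector array (open), by role. In 55 of the 59 lines the filled point lies left of the open one; the gap is widest for SMC4 (10.20 with EGR1 against 10.79 with empty vector) and reversed for CDC25B (9.13 with EGR1 against 9.02 with empty vector).

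SMC4, ZWINT and ANLN had the largest differences among genes with a promoter entry, and their promoters are shown here for the CHR, which all 3 hold, and for CCAAT, which of the 3 only that of ZWINT holds. SMC4 is an ATPase subunit of condensin and read 10.20 in the EGR1 array and 10.79 in the empty-vector array, 1.503-fold lower. ZWINT, an outer-kinetochore protein that recruits ZW10, read 9.74 in the EGR1 array and 10.14 in the empty-vector array, 1.31-fold lower. ANLN encodes anillin, the scaffold of the contractile ring, and read 10.30 in the EGR1 array and 10.67 in the empty-vector array, 1.29-fold lower. The 250 bases before the annotated start are from RefSeq (GRCh38.p14), at chr3:160399400-160399649 on the plus strand for SMC4, chr10:56361260-56361509 on the minus strand for ZWINT and chr7:36389612-36389861 on the plus strand for ANLN. Capitals mark matches on either strand to TTTGAA or TTCGAA (CHR) and to CCAAT, so TTCAAA is a CHR match on the other strand. The motifs were chosen after the differences were seen. In the ANLN promoter 2 CHR matches lie side by side, and in that of ZWINT 1 CHR match follows 2 CCAAT matches.
SMC4: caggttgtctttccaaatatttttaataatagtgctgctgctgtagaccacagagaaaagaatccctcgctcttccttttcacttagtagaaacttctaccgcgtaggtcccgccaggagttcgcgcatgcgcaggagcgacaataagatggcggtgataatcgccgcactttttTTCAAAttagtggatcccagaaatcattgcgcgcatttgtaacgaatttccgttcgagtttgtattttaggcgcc
ZWINT: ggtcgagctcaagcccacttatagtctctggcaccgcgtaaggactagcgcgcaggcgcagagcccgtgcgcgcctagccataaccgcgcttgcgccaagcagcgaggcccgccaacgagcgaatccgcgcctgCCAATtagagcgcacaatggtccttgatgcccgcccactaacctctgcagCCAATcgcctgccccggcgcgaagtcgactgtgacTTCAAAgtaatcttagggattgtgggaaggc
ANLN: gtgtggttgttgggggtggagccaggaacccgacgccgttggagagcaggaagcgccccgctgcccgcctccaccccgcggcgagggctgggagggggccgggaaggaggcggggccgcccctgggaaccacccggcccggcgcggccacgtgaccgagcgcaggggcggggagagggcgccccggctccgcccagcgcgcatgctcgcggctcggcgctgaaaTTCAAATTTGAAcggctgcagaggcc

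Of the 59 genes, 51 had a promoter entry, of which the first listed was read. A CHR match was present in 27 of the 51 (52.9%), against 14.6% of 27305 promoters of the same length and 9.55% of the 10312 whose genes lay past the floor. CCAAT was present in 36 of the 51 (70.6%), against 33.0% of all promoters and 34.9% of those past the floor. Neither motif was particular to the 59. Of 90 promoters of other mitosis genes (the second list below), 25 held a CHR match (27.8%) and 48 held CCAAT (53.3%). Mitotic genes with a CHR match had a median log2 difference of -0.21 (27 genes, from -0.59 to -0.01), and those without one had a median of -0.14 (24 genes, from -0.26 to 0.11). The ranges of both groups overlapped. For CCAAT the medians were -0.19 with a match (36 genes) and -0.15 without (15 genes). The EGR1 motif GCGTGGGCG or GCGGGGGCG, on either strand, was found in 2 of the 51 promoters (3.92%), against 5.30% of all promoters and 8.81% of those past the floor. Among the 90 promoters of other mitosis genes it was found in 3 (3.33%). A match describes letters in this window and is not evidence of binding.

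The mitotic kinases lay slightly lower in the EGR1 array. All 10 had differences under 0 (9 after the lowess correction, which turned PLK1), from -0.25 to -0.03, with a median of -0.15, and 0 reached 1.2-fold. CDK1, the kinase of mitotic entry, read 10.82 in the EGR1 array and 11.07 in the empty-vector array, 1.19-fold lower. Its next brightest probe set differed by -0.28 (9.996 with EGR1 against 10.28 with empty vector), and a dim one under the floor by 0.14. BUB1B (BubR1), which inhibits the APC/C while kinetochores are unattached, read 9.04 in the EGR1 array and 9.25 in the empty-vector array. TTK (MPS1), the kinase that starts the checkpoint signal, read 9.51 with EGR1 against 9.70 with empty vector. PLK4, which controls centriole duplication, read 7.30 with EGR1 against 7.46 with empty vector. WEE1, which holds CDK1 inactive by phosphorylation, was also lower, at 9.40 with EGR1 against 9.55 with empty vector. AURKA, the centrosomal Aurora kinase (-0.14), AURKB, that of the chromosomal passenger complex (-0.11), and the checkpoint kinase BUB1 (-0.14) had smaller differences. PLK1 (-0.03) and the centrosomal kinase NEK2 (-0.07) were nearest to 0, and their probe sets past the floor lay on both sides of it (from -0.03 to 0.04 for PLK1 and from -0.22 to 0.13 for NEK2).

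The CDC25 phosphatases, which remove the inhibitory phosphates from CDK1, went apart, and their median of -0.03 turned to 0.020 after lowess and 0.012 after quantile normalization. CDC25C read 8.17 in the EGR1 array and 8.35 in the empty-vector array, a difference of -0.18, with -0.14 in its other probe set. CDC25B read 9.13 in the EGR1 array and 9.02 in the empty-vector array, a difference of 0.11 and the largest positive one of the 59. All 5 CDC25B probe sets were above 0, from 0.04 to 0.19.

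Among checkpoint and APC/C genes, MAD2L1, BUB3 and ESPL1 were lower, and CDC20 and UBE2C lay near 0 in their brightest probe sets. CDC20 turned above 0 after lowess and after quantile normalization. This does not set the checkpoint apart from the APC/C. The measured APC/C subunits of the second list below ran from -0.18 (ANAPC5) to -0.03 (CDC16). MAD2L1 (MAD2), which captures CDC20, read 10.20 in the EGR1 array and 10.42 in the empty-vector array, and its 3 probe sets past the floor ran from -0.22 to -0.12. BUB3, the partner of BUB1 and BubR1, read 9.96 with EGR1 against 10.11 with empty vector, with a dimmer probe set at -0.52. ESPL1, the separase that cleaves cohesin, read 8.37 with EGR1 against 8.57 with empty vector. CDC20, the APC/C activator, read 11.16 in the EGR1 array and 11.18 in the empty-vector array. Its other probe set past the floor differed by -0.11 (9.50 with EGR1 against 9.61 with empty vector). UBE2C, the ubiquitin-conjugating enzyme of the APC/C, read 11.77 with EGR1 against 11.74 with empty vector. The 4 UBE2C probe sets ran from -0.07 to 0.03, and with the mean of them UBE2C was at -0.014, so it has no settled direction.

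Of the transcription and chromosome genes, TOP2A differed most. This topoisomerase, which untangles sister chromatids, read 9.92 in the EGR1 array and 10.29 in the empty-vector array, 1.29-fold lower, and its 3 probe sets ran from -0.37 to -0.17. MKI67, the proliferation marker Ki-67 that coats mitotic chromosomes, read 8.61 with EGR1 against 8.85 with empty vector, and its 5 probe sets past the floor ran from -0.32 to -0.02. FOXM1, a transcription factor for G2/M genes, read 8.26 with EGR1 against 8.42 with empty vector. MYBL2 (B-MYB), which works with MuvB on the same promoters, read 8.33 in the EGR1 array and 8.31 in the empty-vector array, a difference of 0.02 from 1 probe set.

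All 13 kinetochore, centromere and passenger-complex genes had differences under 0 (median -0.17), and 12 did after lowess and after quantile normalization, which turned CENPN. Within the NDC80 complex, the microtubule-binding rod of the kinetochore, the 2 inner subunits differed more than the 2 outer ones. SPC25 read 8.62 in the EGR1 array and 8.89 in the empty-vector array, a difference of -0.262, just short of the 1.2-fold threshold of 0.263. SPC24 read 7.66 with EGR1 against 7.92 with empty vector, although its 4 dimmer probe sets ran up to 0.13. NDC80 itself read 9.83 with EGR1 against 9.97 with empty vector, and NUF2 read 9.06 with EGR1 against 9.14 with empty vector. With a probe-level SD of 0.15 and 1 array per group, the order of these subunits is not settled. ZWINT, whose promoter is shown above, was the only one of the 13 at 1.2-fold, and its second probe set differed by -0.22. CENPA, the histone H3 variant that marks centromeres, read 10.37 with EGR1 against 10.58 with empty vector, and its 4 probe sets ran from -0.32 to -0.21. CENPK, a subunit of the constitutive centromere network, read 8.71 with EGR1 against 8.93 with empty vector. CENPN, which binds CENPA nucleosomes, stayed near 0 at 10.15 with EGR1 against 10.16 with empty vector, with 5 probe sets past the floor between -0.05 and 0.06. CENPF differed by -0.17 in its brightest probe set (9.02 with EGR1 against 9.19 with empty vector) and by -1.004 in a dimmer one (6.59 with EGR1 against 7.60 with empty vector), the widest disagreement between probe sets past the floor within any of the 59 genes. The kinetochore motor CENPE was at -0.15, the cohesin protector SGOL1 (now SGO1) at -0.14, and the passenger-complex subunits CDCA8 (borealin) and INCENP at -0.19 and -0.07.

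**Figure D3:**
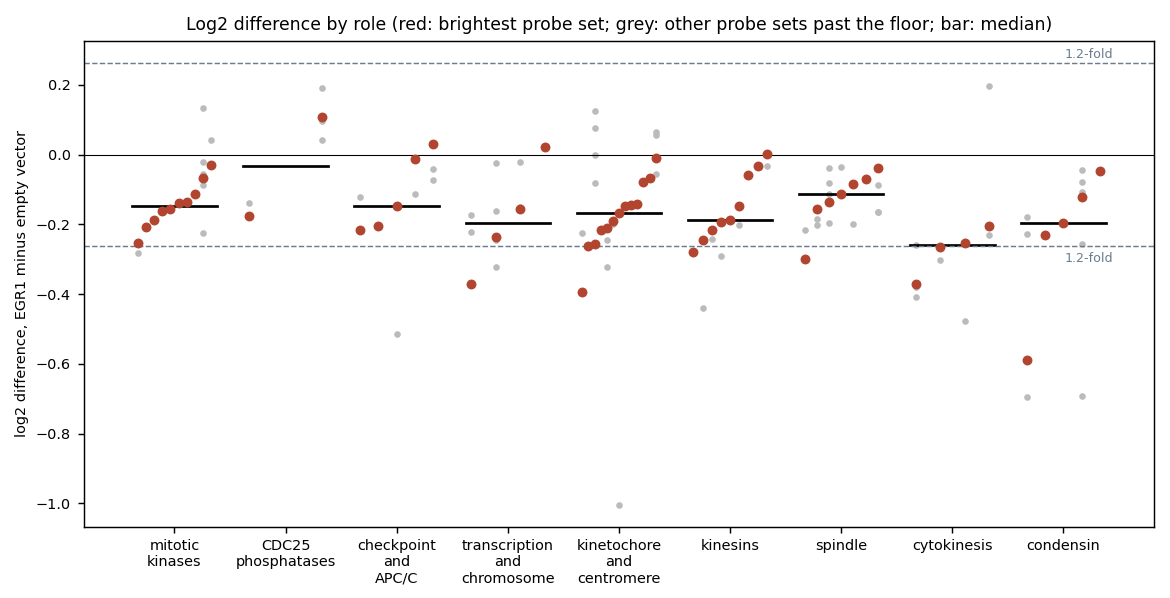
Log2 difference, EGR1 minus empty vector, of each gene by role, with red points for the brightest probe set, grey points for its other probe sets past the floor, black bars for group medians and dashed lines at 1.2-fold. Group medians run from -0.26 (cytokinesis) to -0.03 (the 2 CDC25 phosphatases), and the lowest grey point is CENPF at -1.004.

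The kinesins spread from -0.28 to 0.003 (9 genes, median -0.19, 8 under 0, and 7 after lowess or quantile normalization, which turned KIF20A). KIF18A, which dampens chromosome movement at the metaphase plate, read 7.50 in the EGR1 array and 7.78 in the empty-vector array, 1.21-fold lower. KIF14, a midbody kinesin that binds citron kinase, read 7.43 with EGR1 against 7.67 with empty vector, with -0.44 in its dimmer probe set. KIF23 (MKLP1), the motor of centralspindlin, read 9.45 with EGR1 against 9.67 with empty vector. KIF4A, a chromokinesin that works with PRC1, read 8.22 with EGR1 against 8.42 with empty vector. KIF15 (-0.19) and KIF11 (Eg5, -0.15), the motors that push the spindle poles apart, were lower as well. KIF20B (-0.06) and KIF20A (MKLP2, -0.03), which brings the passenger complex to the midzone, differed little. KIF2C (MCAK), a microtubule depolymerase at centromeres, read 10.47 in both arrays, with a difference of 0.003 that became -0.016 with the mean of its probe sets.

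All 7 spindle genes had differences under 0, also after both normalizations, with a median of -0.11. ASPM, a spindle-pole protein, read 8.17 in the EGR1 array and 8.47 in the empty-vector array, 1.23-fold lower, with -0.22 in its second probe set. NUSAP1, which bundles microtubules near chromosomes, read 9.57 with EGR1 against 9.72 with empty vector. CKAP2, a microtubule-binding protein, read 8.68 with EGR1 against 8.82 with empty vector, and PRC1, the crosslinker of the midzone, read 10.42 with EGR1 against 10.53 with empty vector. By brightest probe set, DLGAP5 (HURP, -0.08), the Aurora A activator TPX2 (-0.07) and the hyaluronan receptor HMMR, which also binds spindle microtubules (-0.04), differed least. However, the second DLGAP5 probe set was at -0.20, and the 3 dimmer HMMR probe sets reached -0.16.

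Cytokinesis genes had the lowest median of the 9 role groups, -0.26 over 4 genes, all under 0 and so after both normalizations. ANLN has been given above, and its 4 probe sets ran from -0.41 to -0.26. ECT2, the exchange factor that activates RhoA at the cell equator, read 9.91 in the EGR1 array and 10.17 in the empty-vector array, 1.202-fold lower. CEP55, which recruits the abscission machinery to the midbody, read 9.74 with EGR1 against 9.99 with empty vector, with -0.48 in a dimmer probe set. RACGAP1, the centralspindlin partner of KIF23 and ECT2, read 10.16 with EGR1 against 10.36 with empty vector, and of its 2 dimmer probe sets 1 was at -0.23 and the other at 0.20. No test sets these role groups apart from each other.

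All 5 condensin genes were under 0 (median -0.20; 4 after lowess, which turned NCAPD2), but the size differed between subunits and between probe sets. SMC4 had the largest difference of the 59. Its 4 probe sets lay in 2 pairs, at -0.70 and -0.59 and at -0.23 and -0.18, with mean levels of 10.34 and 10.50 in the first pair and 9.99 and 10.34 in the second. With the mean of the 4, SMC4 was at -0.42. SMC2, which pairs with SMC4, read 8.71 in the EGR1 array and 8.83 in the empty-vector array, and of its 7 probe sets the lowest was at -0.69 while the others ran from -0.26 to -0.05. Of the non-SMC subunits of condensin I, NCAPH read 8.09 with EGR1 against 8.32 with empty vector and NCAPG read 10.08 with EGR1 against 10.28 with empty vector. NCAPD2 read 9.07 with EGR1 against 9.12 with empty vector, with the same difference (-0.05) in both of its probe sets. Which transcript forms the SMC4 and SMC2 probe sets detect was not established here.

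**Figure D4:**
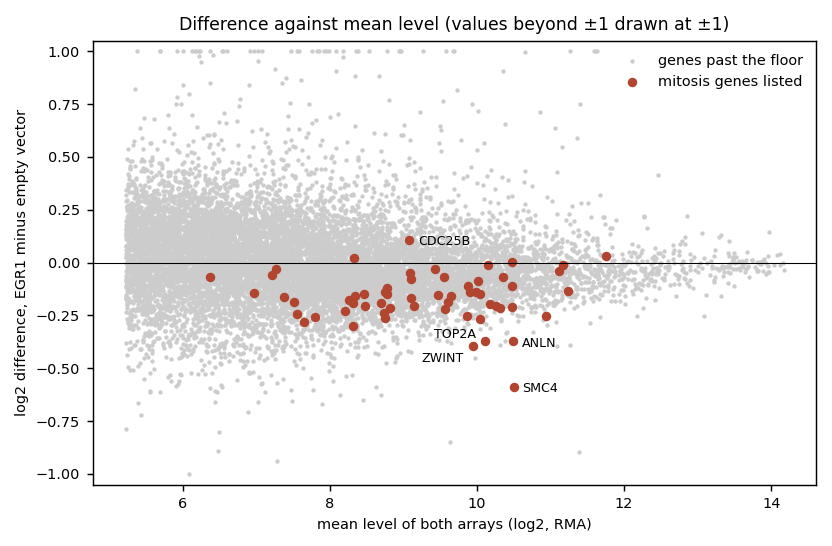
Log2 difference, EGR1 minus empty vector, against the mean level of both arrays, for genes past the floor (grey, values beyond 1 drawn at 1) and the 59 mitotic genes (red). The mitotic genes' probe sets have bright signals, with a median of 9.43 where that of all genes is 7.50, and lie mostly just under 0; SMC4, at -0.59, is the lowest of them.

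The probe sets of the mitotic genes gave bright signals, with mean levels from 6.37 to 11.76, and genes with brighter probe sets tended to lie lower on these arrays (Spearman's rho -0.20 between mean level and difference across the 12652 genes past the floor, which share the same 2 arrays). Within the 59 the same rho was 0.06. A lowess correction of the difference on level moved their median to -0.11, with 50 of 59 under 0 (PLK1, CDC20, CENPN, KIF20A and NCAPD2 turned), and left 4 genes (6.78%) at 1.2-fold lower, where 4.82% of all genes past the floor were. Quantile normalization of both arrays gave -0.12, 52 of 59 and 4 genes (6.78%), against 4.96% of all genes. The 4 were SMC4, ZWINT, ANLN and TOP2A under both normalizations, while ASPM, KIF18A and ECT2 fell short of 1.2-fold under both. At 1.2-fold the mitotic genes' share was thus close to that of all genes under both normalizations. The displacement was smaller under both normalizations, and its direction did not change under either. The share of all genes under 0 on these scales is not given here. The median of all 18132 genes was 0.012 after lowess and 0.008 after quantile normalization.

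A second list held 107 other genes of mitosis, of which 104 were measured and all 104 lay past the floor. They were also displaced, with a median of -0.11 and 91 of 104 under 0. At 1.2-fold, 6 were lower (5.77%) and 1 was higher, close to the share of all genes on the lower side (5.85%). With the mean of all probe sets in place of the brightest, 15 of 97 were lower (15.5%, against 5.68% of all genes), and with the median 12 of 95 (12.6%, against 5.61%). The mitotic genes of the first list also rose in these settings, to 10 of 58 with the mean (17.2%) and 8 of 57 with the median. The 6 were SHCBP1, a midbody protein partner of centralspindlin (8.69 in the EGR1 array against 9.14 in the empty-vector array), the augmin subunit HAUS6 (7.87 with EGR1 against 8.25 with empty vector), the phosphatase CDC25A (7.92 with EGR1 against 8.22 with empty vector), the condensin II subunit NCAPD3 (9.26 with EGR1 against 9.54 with empty vector), OIP5, a factor for CENPA loading (9.01 with EGR1 against 9.28 with empty vector), and FBXO5 (EMI1), an APC/C inhibitor (10.19 with EGR1 against 10.46 with empty vector). The gene that was higher was SEPTIN9, a filament protein of the cleavage furrow, at 10.33 in the EGR1 array and 10.04 in the empty-vector array, and its 7 probe sets past the floor ran from -0.09 to 0.36. Next highest was the centrosomal scaffold CEP192, at 8.42 in the EGR1 array and 8.26 in the empty-vector array. The augmin subunit HAUS8 read 7.97 with EGR1 against 7.83 with empty vector. MAD1L1 (MAD1), the kinetochore partner of MAD2, read 7.34 with EGR1 against 7.21 with empty vector. CENPT, a centromere protein that binds the NDC80 complex, read 6.93 with EGR1 against 6.81 with empty vector, and the MIS12-complex subunit PMF1 read 7.77 with EGR1 against 7.71 with empty vector. These 5 were below 1.2-fold, with log2 differences of 0.16, 0.14, 0.13, 0.12 and 0.06 in that order. By group, the median was -0.21 for 7 further cytokinesis genes, which ran from -0.44 to 0.29 with 2 of them above 0. The median was -0.19 for 6 centriole genes and -0.15 for 26 kinetochore genes. For 17 kinesin and spindle genes it was -0.11, and for 13 condensin and cohesin genes -0.10. It was -0.08 for 3 passenger-complex and shugoshin genes and for 9 genes of the DREAM complex. For 13 further checkpoint and APC/C genes it was -0.06, and for 10 mitotic cyclin and kinase-regulator genes -0.02.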

How the data were processed

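The deposited table holds log2 probe-set levels, for which the authors used RMA according to the submitters' processing notes. Its version and settings, the genome build and the size of the batch it was run on are not stated in the sources used here. Per the labels' protocols, cRNA was labelled from 2 µg of total RNA. The difference was the EGR1 array minus the empty-vector array, without further normalization. With 1 array per group no test was possible, and the number of arrays limits the precision.

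The platform annotation named the probe sets, updated by Entrez ID to RefSeq symbols. Of 49395 probe sets 44994 named 1 gene, and the 1832 naming several and 2569 naming none were left out. The brightest probe set stood for a gene, with tied probe sets averaged. The members, lists and role groups were chosen with earlier results of these data known. Both levels are given for the 4 members with the largest difference in each role group, every one at 1.2-fold or above 0, the 6 lowest and 6 highest other mitosis genes, and further members added after their values were seen. Alternatives were the mean or median of all probe sets, leaving out _x_at and _s_at probe sets, lowess (fraction 0.3), quantile normalization, no floor and a floor at the 60th percentile. The steps were tested on simulated data whose planted differences were larger than the median difference of the mitotic genes. Recovery of differences as small as that median was not tested. The steps were run in Python 3.11.15 with pandas 2.3.3 and statsmodels 0.14.6.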

Additional observations from a re-analysis of the deposited data

How the results depend on the processing

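The median over the mitotic genes stayed under 0 in all settings tried, and the count at 2-fold stayed at 0. It was -0.15 with the mean and -0.15 with the median of all probe sets, -0.16 without _x_at and _s_at probe sets (55 genes left), -0.11 after lowess and -0.12 after quantile normalization. Relative to the median of all 18132 genes, with or without the floor, it was -0.16, and -0.12 after lowess and -0.13 after quantile normalization. With the floor at the 60th percentile the reference was the 9312 genes past that floor, with a median of -0.03. The mitotic genes' own median was then -0.16, and -0.12 relative to that reference. The count at 1.2-fold lower, 7, rose to 10 of 58 with the mean of all probe sets (17.2%, against 5.68% of all genes). With the median it was 8 of 57, and without _x_at and _s_at probe sets 9 of 55 (16.4%, against 7.04% of all genes). It fell to 4 after lowess and 4 after quantile normalization (6.78%, against 4.82% and 4.96% of all genes). At a threshold of 1.1-fold, chosen after the values were seen, the count was 38. For the other mitosis genes the median was -0.073 after lowess and -0.078 after quantile normalization. Their count at 1.2-fold lower, 6, was 15 of 97 with the mean and 12 of 95 with the median of all probe sets (15.5% and 12.6%, against 5.68% and 5.61% of all genes), 2 after lowess, 2 after quantile normalization (1.92%) and 42 at 1.1-fold (40.4%, against 21.1% of all genes); the count higher, 1, was 0 with the mean and with the median of all probe sets and 3 at 1.1-fold. Among role groups, the checkpoint and APC/C median was -0.061 with the mean and with the median of all probe sets, and -0.079 with PTTG1 added by its shared probe set. The condensin median was -0.11 with the median of all probe sets, the cytokinesis median -0.34 without _x_at and _s_at probe sets, and the kinetochore median -0.12 after lowess and -0.12 after quantile normalization. The CDC25 median, over 2 genes, turned to 0.020 after lowess and 0.012 after quantile normalization. UBE2C was -0.014 with the mean and -0.0075 with the median of all probe sets, and KIF2C -0.016 with either. The cause of these shifts was not tested. No paired analysis was possible because each group held 1 array. Nothing here measures error between cultures or arrays, and RMA gives no detection call.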

Other observations

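In the list of other mitosis genes the mitotic cyclins CCNB1 and CCNB2, singled out after their values were seen, had differences of 0.01 and 0.004, while CCNA2 was at -0.14.

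Longer genes tended to lie lower among the 59 (Spearman's rho -0.23 between the span of the gene in GRCh38.p14 and the difference, 59 genes). Across the 12647 genes past the floor with a span it was -0.15, and across the 104 other mitosis genes it was -0.007. These are descriptions across genes of the same 2 arrays. Of the probe sets of mitotic genes shared with other genes, that of AURKA, AURKAP1 and RAB3GAP2 differed by -0.23 (10.03 in the EGR1 array and 10.27 in the empty-vector array) and that of KIF4A and KIF4B by -0.18 (8.94 in the EGR1 array and 9.12 in the empty-vector array).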
